A study of Mus musculus with 16 samples.

Results

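A set of 10 genes that restrain or relay signalling through the kinase mTOR were followed through the activation of mouse CD8+ T cells in culture. They were chosen by name, as the rows of the count matrix with the symbols Eif4ebp1, Eif4ebp2, Sesn1, Sesn2, Sesn3, Ddit4, Tsc1, Tsc2, Rptor and Sgk1, and all 10 were found among 34573 symbols. All 10 also passed the filter on low counts that left 14332 genes to be tested. From Tn to activated cells, Eif4ebp1 and Sesn2 rose at least 8.78-fold in every activated state and Sesn1 and Sgk1 fell at least 4.04-fold, while the means of the other 6 genes differed by at most 1.79-fold.

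RNA-seq was read from naive CD8+ T cells of C57BL/6 mouse spleen and from such cells stimulated in culture, with 3 libraries for each of 4 states. The Tn state is the CD8+ CD44- CD62L+ sort of day 0. The activated states received antibodies to CD3e and CD28, each at 10 µg/ml, and, overnight, IL-2 at 300 U/ml. Teff1 was sorted at day 2 and Teff2 at day 5, both as CD8+ PD-1+ TIM-3- cells, and Tex at day 5 as CD8+ PD-1+ TIM-3+ cells. All activated states come from culture with antibodies, and the labels do not tell which mice or cultures lie behind the replicates. The p-values therefore rest on the spread among these libraries alone, which may be technical.

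mTOR is a kinase that works in a pair of complexes and ties protein synthesis and growth to nutrients and growth signals. In complex 1 (mTORC1) it binds the scaffold raptor and phosphorylates the 4E-BPs, which otherwise hold the cap-binding protein eIF4E and block translation. The TSC complex switches off Rheb, the GTPase that activates mTORC1. Sestrins and REDD1 (the product of Ddit4) restrain mTORC1 under amino acid shortage, oxidative stress, DNA damage or hypoxia. In T cells mTORC1 activity rises on stimulation and is needed for growth and effector differentiation, while resting cells keep it low. Not all of the 10 genes are brakes: Rptor encodes raptor itself, and Sgk1 encodes a kinase switched on by mTOR complex 2 (mTORC2).

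The libraries held 14668884 to 21162206 counts. Values are in CPM, the counts of a gene scaled to a common library total, after TMM, a normalization that sets aside genes of extreme change. The CD8 chains and Cd3e were high in every library (Cd8a 715 to 1540 CPM), and Havcr2, the gene of TIM-3, had 10.9 to 38.4 CPM in Tex and at most 0.612 CPM in Teff2, as the sort on TIM-3 would give. The Tn libraries also held RNA of other spleen cells in unequal amounts. The summed level of 7 B cell markers was 534, 39.9 and 1103 CPM in Tn replicates 1, 2 and 3 and at most 10.7 CPM in any activated library, with none of the 7 at 0 throughout Tn. The 5 MHC class II genes summed to 1422, 119 and 2230 CPM in the same order and to at most 127 CPM after activation, and the 9 macrophage and monocyte markers to 297, 75.8 and 160 CPM and to at most 12.0 CPM. Tn replicate 2 was the lowest in these 3 lists but not in 5 erythroid markers, which summed to 159, 147 and 73.3 CPM in Tn and to at most 7.45 CPM after activation. The part of such RNA in the differences from Tn was not tested. The calls of Eif4ebp1, Sesn1, Sesn2 and Sgk1 all held against Tn replicate 2 alone, and where the call of another gene ended there the value is given. In the activated states replicate 1 differed from the others for some of the genes. Some of the values that it moves, but not all, are given with and without it.

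By the quasi-likelihood test of edgeR, with Benjamini-Hochberg adjustment over all 14332 genes, 6 of the 10 genes passed an adjusted p of 0.05 between Teff1 and Tn, 2 higher and 4 lower, where 48.9% of all genes tested passed (24.5% higher and 24.5% lower). Between Teff2 and Tn 6 passed, again 2 higher and 4 lower, against a background of 48.9%, and between Tex and Tn 6 passed, 2 higher and 4 lower, against 52.9%. These shares lie near the background. The comparisons share the Tn libraries and are not independent. The median log2 fold change of the 10 genes was -0.33, -0.38 and -0.44 in the 3 comparisons, against -0.06, 0 and 0 over all genes tested. The libraries did not overlap between states for 7, 8 and 8 of the 10 genes in the same order, against 61.4%, 59.4% and 63.3% of all genes tested.

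**Figure D1:**
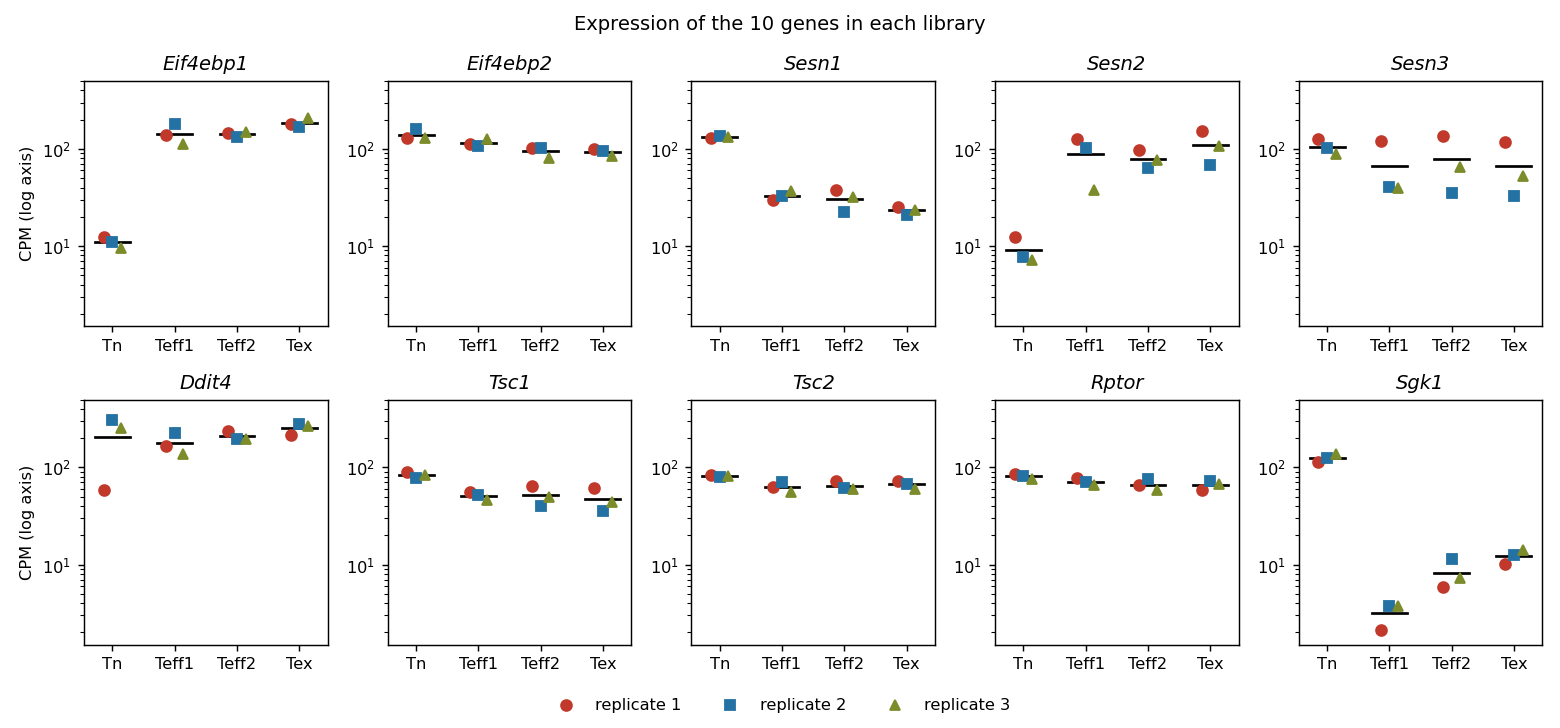
Level of each of the 10 genes in each library, in CPM on a log axis, by state. Points are libraries (circle, square and triangle for replicates 1, 2 and 3) and black lines are means; Sgk1 falls from above 112 CPM in Tn to at most 3.76 CPM in Teff1, and Ddit4 has 1 low library, Tn replicate 1 at 58.8 CPM.

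The windows upstream of 3 stress-linked genes are shown because Sesn1 and Sesn2 moved in opposite directions while Ddit4 passed no test. Each is 300 bases, from 250 before to 50 after a RefSeq start site in build GRCm38.p6, printed 5′ to 3′ along the gene, and 9 of the 10 genes had a window in that table (Eif4ebp1 is named only). Capitals mark matches, on either strand, to TGTTTAC, a core bound by FOXO factors, to TGATGNAA, the core of the ATF4 element, or to ACGTG, the core of the hypoxia response element.
Sesn1, chr10:41810324-41810623, plus strand: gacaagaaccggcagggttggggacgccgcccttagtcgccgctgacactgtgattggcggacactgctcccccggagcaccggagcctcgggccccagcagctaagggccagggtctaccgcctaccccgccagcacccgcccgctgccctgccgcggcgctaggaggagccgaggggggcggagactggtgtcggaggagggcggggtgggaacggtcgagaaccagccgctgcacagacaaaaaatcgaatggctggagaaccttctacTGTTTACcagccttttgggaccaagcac
Sesn2, chr4:132510407-132510706, minus strand: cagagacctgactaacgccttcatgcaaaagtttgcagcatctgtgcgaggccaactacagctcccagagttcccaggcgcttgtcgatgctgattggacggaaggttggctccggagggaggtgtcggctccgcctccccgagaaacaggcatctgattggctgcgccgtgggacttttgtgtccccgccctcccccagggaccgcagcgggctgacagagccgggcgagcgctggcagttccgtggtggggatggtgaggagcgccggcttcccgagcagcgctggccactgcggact
Ddit4, chr10:59951721-59952020, minus strand: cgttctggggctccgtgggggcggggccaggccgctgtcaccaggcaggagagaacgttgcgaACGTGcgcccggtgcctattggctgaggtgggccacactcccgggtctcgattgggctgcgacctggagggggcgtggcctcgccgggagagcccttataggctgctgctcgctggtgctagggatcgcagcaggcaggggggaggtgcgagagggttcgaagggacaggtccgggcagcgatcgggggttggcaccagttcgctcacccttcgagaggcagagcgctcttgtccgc
The window of Sesn1 holds TGTTTAC at position 23 after the start site, a match found in 3.65% of 32851 windows. The second window of Sesn1 holds none of the 3 cores. Ddit4 holds ACGTG 187 bases before its start site, as 19.6% of windows hold that core on at least 1 strand. Windows of Eif4ebp2, Rptor and Sgk1 (1 of its 6) hold ACGTG as well. The window of Sesn2 holds none of the 3 cores, and TGATGNAA, present in 3.97% of windows, is in none of the 15 windows of the 9 genes. These matches describe letters in a window and do not show binding.

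The 4E-BP genes diverged. Eif4ebp1 encodes 4E-BP1, the best-studied repressor of eIF4E, and lies on chromosome 8 (27260327 to 27275656, GRCm38.p6). It stood at 12.5, 10.9 and 9.51 CPM in Tn replicates 1, 2 and 3, and at 137, 181 and 111 CPM in Teff1. At day 5 it had 148, 134 and 149.7 CPM in Teff2 and 180.2, 166 and 208 CPM in Tex. Every activated library was thus far above every Tn library, and the lowest Tex library was above the highest Teff2 library. Eif4ebp1 rose 13.1-fold in Teff1 (log2 fold change 3.71, SE 0.21, edgeR adjusted p = 1.79e-06), 13.1-fold in Teff2 (3.71, SE 0.21, adjusted p = 6.04e-07) and 16.8-fold in Tex (4.07, SE 0.21, adjusted p = 2.97e-07) against Tn. Teff1 and Teff2 did not differ beyond their spread, with a log2 difference of 0 and a 95% interval of -0.40 to 0.40. In bulk samples such as these, a change in the share of cells that express a gene and a change in RNA per cell cannot be told apart.

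Eif4ebp2 encodes 4E-BP2, the second repressor of the family, and lies on chromosome 10 (61428491 to 61452790). Its libraries had 129, 161 and 129 CPM in Tn, 112, 108 and 127.5 in Teff1, 103, 103 and 80.9 in Teff2, and 100.7, 95.1 and 85.0 in Tex. No library of Teff1 reached the lowest of Tn, nor any of Teff2 the lowest of Teff1, while Tex and Teff2 overlapped. The gene did not pass the test between Teff1 and Tn (log2 difference -0.27, SE 0.15, edgeR adjusted p = 0.161), where it did with upper-quartile scaling (-0.41, adjusted p = 0.0387). It fell between Tn and Teff2 (-0.55, SE 0.15, adjusted p = 0.0117) and between Tn and Tex (-0.58, SE 0.15, adjusted p = 0.00792). Its call in Teff2 ended without Tn replicate 2 (edgeR adjusted p = 0.0573) and without Teff2 replicate 3 (0.0615).

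Within a library, the ratio of Eif4ebp1 to Eif4ebp2 counts was 0.0970, 0.0678 and 0.0738 in Tn. It was 1.23, 1.68 and 0.874 in Teff1, 1.44, 1.30 and 1.85 in Teff2, and 1.79, 1.75 and 2.44 in Tex. The ratio of counts depends on transcript lengths, which were not used here, so its change between libraries can be read but not which transcript was more abundant.

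The 3 sestrin genes took 3 different courses. Sestrins bind the GATOR complexes that pass amino acid signals to mTORC1, and Sesn2 encodes the leucine sensor of the family. Sesn1, on chromosome 10 (41810574 to 41908436) and known as a target of p53 and of FOXO factors, had 129, 137 and 133 CPM in Tn. It stood at 29.5, 32.5 and 36.7 CPM in Teff1, at 37.35, 22.4 and 31.9 in Teff2 and at 25.4, 20.7 and 23.7 in Tex. The Tn libraries were the most even of the gene, with a coefficient of variation of 2.72%, and all lay above all activated libraries. Sesn1 fell 4.04-fold in Teff1 (log2 fold change -2.01, SE 0.19, edgeR adjusted p = 1.55e-05), 4.35-fold in Teff2 (-2.12, SE 0.19, adjusted p = 1.04e-05) and 5.71-fold in Tex (-2.51, SE 0.19, adjusted p = 3.45e-06).

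Sesn2, on chromosome 4 (132492804 to 132510456), is a known target of ATF4, the transcription factor of the integrated stress response. Its level was 12.4, 7.63 and 7.09 CPM in Tn. In Teff1 it was 126, 103 and 37.7 CPM. It was 97.0, 64.0 and 77.1 CPM in Teff2 and 152, 68.1 and 108 CPM in Tex. All activated libraries were above all Tn libraries, but Teff1 replicate 3 was the lowest of them by a wide gap. Sesn2 rose 9.83-fold in Teff1 (log2 fold change 3.30, SE 0.45, edgeR adjusted p = 0.00016), 8.78-fold in Teff2 (3.14, SE 0.44, adjusted p = 0.000194) and 12.1-fold in Tex (3.60, SE 0.45, adjusted p = 7.7e-05). In Teff1 replicate 3 Sesn2 was at 0.333 times the geometric mean of the other Teff1 libraries. The median deviation there was -1.02 on the log2 scale for 19 ATF4 and stress response genes, against -0.04 for all genes. It was -0.46 for p53 pathway genes, -0.56 for FOXO genes, -0.39 for glucocorticoid genes and 0.16 for hypoxia genes. Sesn2 and the ATF4 list deviated alike in Teff1 replicate 1 (1 and 0.61). In replicate 1 of Teff2 (0.46 and -0.41) and of Tex (0.82 and -0.30) they went opposite ways. The part of these lists in the low value was not tested.

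Sesn3, on chromosome 9 (14276301 to 14326134), is a FOXO target in mouse cells. It had 125, 103 and 88.4 CPM in Tn, and its activated libraries split by replicate number. Replicate 1 had 121, 136 and 117 CPM in Teff1, Teff2 and Tex, replicate 2 had 40.9, 35.3 and 32.7 CPM, and replicate 3 had 39.4, 65.6 and 52.2 CPM. Replicate 1 therefore stayed in the range of Tn or just above it, while replicates 2 and 3 lay below every Tn library. With all libraries and no replicate block, Sesn3 passed no test against Tn (log2 differences -0.65, -0.42 and -0.65 in Teff1, Teff2 and Tex, edgeR adjusted p = 0.36, 0.561 and 0.357). With the block it passed in Teff1 (-0.81, adjusted p = 0.0354) but not in Teff2 or Tex (adjusted p = 0.176 and 0.0571). The labels do not tell whether replicate numbers pair these states with Tn. Without replicate 1 of the 3 activated states it fell by 1.32 in Teff1, 0.98 in Teff2 and 1.22 in Tex on the log2 scale (adjusted p = 0.00352, 0.0141 and 0.00462). In replicate 1, Sesn3 was 2.99, 2.80 and 2.82 times the geometric mean of replicates 2 and 3 in the 3 states. The median deviation of 12 p53 pathway genes in the same libraries was 0.54, 1.16 and 1.20 on the log2 scale, and that of 13 FOXO factors and targets 0.67, 0.36 and -0.03. The part of these genes in the split was not tested.

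Of all counts on the 3 sestrin genes, Sesn1 held 48.4% to 58.1% and Sesn2 3.08% to 4.64% in the Tn libraries. In the activated libraries Sesn1 held 8.63% to 32.2% and Sesn2 33.1% to 58.8%. These shares, and the sum below, depend on transcript lengths, which were not used here. Their change between libraries can be read, but not which sestrin transcript was more abundant. The summed sestrin level did not move in 1 direction: it was 228 to 267 CPM in Tn, 276, 177 and 114 CPM in Teff1, 270, 122 and 175 in Teff2, and 295, 122 and 184 in Tex. Replicate 1 of each activated state was thus above the highest Tn library and the other activated libraries were below the lowest.

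**Figure D2:**
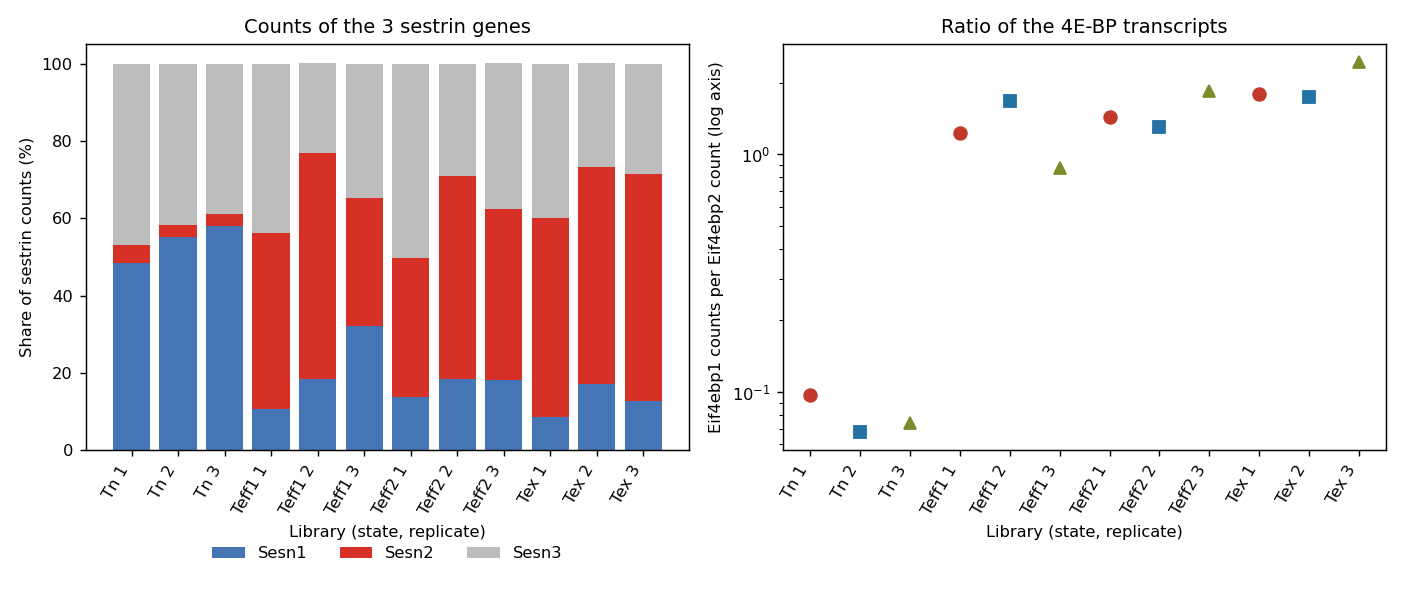
Left, share of the counts of Sesn1, Sesn2 and Sesn3 in each library, in percent of their sum; right, Eif4ebp1 counts per Eif4ebp2 count in each library on a log axis, with marker shapes for replicates. The Sesn2 share is at most 4.64% in Tn and at least 33.1% after activation, and the 4E-BP ratio is at most 0.0970 in Tn and at least 0.874 after it.

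Ddit4 encodes REDD1, which is induced by hypoxia, glucocorticoids and energy stress and acts through the TSC complex. It lies on chromosome 10 (59949675 to 59951770). Tn replicates 1, 2 and 3 had 58.8, 309 and 256 CPM, so that replicate 1 was at 0.210 times the geometric mean of the others, a deviation larger in size than that of 99.7% of all genes tested in that library. Teff1 had 165, 228 and 136 CPM, Teff2 237, 196 and 197, and Tex 218, 282 and 269. These ranges overlapped with Tn in every comparison, and Tex was above Teff2 in 2 of 3 pairs. Ddit4 passed no test, with log2 differences from Tn of -0.24 in Teff1 (SE 0.43, edgeR adjusted p = 0.673), 0.01 in Teff2 (SE 0.43, adjusted p = 0.981) and 0.30 in Tex (SE 0.43, adjusted p = 0.582). Without Tn replicate 1 the difference of Teff1 from Tn was -0.68 and passed (adjusted p = 0.0345), and those of Teff2 and Tex turned to -0.43 and -0.14 (adjusted p = 0.154 and 0.635). In Tn replicate 1 the median deviation of 12 hypoxia-inducible genes was -0.14 and that of 7 genes of the glucocorticoid list 0.24 on the log2 scale, and their part in the low value was not tested.

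Tsc1 and Tsc2 encode hamartin and tuberin, the scaffold and the GTPase-activating subunit of the TSC complex. Tsc1, on chromosome 2 (28640993 to 28691172), had 90.4, 77.0 and 84.0 CPM in Tn. Its Teff1 libraries held 56.1, 51.5 and 46.3 CPM. It had 64.1, 40.4 and 50.04 CPM in Teff2 and 61.2, 35.2 and 44.3 CPM in Tex. No activated library reached the lowest Tn library. Tsc1 fell 1.63-fold in Teff1 (log2 fold change -0.71, SE 0.22, edgeR adjusted p = 0.0181), 1.63-fold in Teff2 (-0.70, SE 0.22, adjusted p = 0.0186) and 1.79-fold in Tex (-0.84, SE 0.22, adjusted p = 0.00692). Against Tn replicate 2 alone the log2 differences were -0.60, -0.59 and -0.73 and none passed (adjusted p = 0.214, 0.22 and 0.122), with the lone Tn library assumed to vary like the other states. The call in Teff1 also ended without Tn replicate 1, Teff1 replicate 2 or Teff1 replicate 3 (adjusted p = 0.0577, 0.0516 and 0.0695), and that in Teff2 without Tn replicate 1, Teff2 replicate 2 or Teff2 replicate 3 (0.0586, 0.103 and 0.0576).

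Tsc2, on chromosome 17 (24595816 to 24632676), had 83.7, 79.4 and 82.2 CPM in Tn. It had 62.1, 70.0 and 56.3 CPM in Teff1, 72.4, 61.3 and 60.3 in Teff2 and 73.1, 67.4 and 60.2 in Tex, all below the lowest Tn library. The fall in Teff1 was 1.30-fold and just passed (log2 fold change -0.38, SE 0.14, edgeR adjusted p = 0.0413). The call ended under 15 of 23 alternatives, among them the omission of any single Tn library (edgeR adjusted p = 0.0997, 0.0663 and 0.102 without replicates 1, 2 and 3). Leaving out replicate 1 of the activated states also ended it (-0.30, edgeR adjusted p = 0.0928). Against Tn replicate 2 alone the difference was -0.35 (adjusted p = 0.285). The differences in Teff2 (-0.34, adjusted p = 0.0645) and Tex (-0.29, adjusted p = 0.102) did not pass, but both did with upper-quartile scaling (-0.45 and -0.41, adjusted p = 0.0272 and 0.0381). In Teff2 the difference passed in 5 of 23 alternatives, the others being DESeq2 (adjusted p = 0.0451), the filter at a mean of 1 CPM (0.0395), the authors' log2 matrix (0.0308) and the omission of Teff2 replicate 1 (0.042). The annotated end of Tsc2 overlaps that of Pkd1 by 699 bases, and as the sources used here do not say that counting used strand, reads there cannot be told apart. The same limit holds for Rptor, whose span overlaps Rptoros by 13555 bases. It holds also for Sgk1, which overlaps Gm18511 by 800 and Gm46215 by 95 bases. Rptoros, Gm18511 and Gm46215 are not among the symbols counted.

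Rptor encodes raptor, the subunit that recruits substrates to mTORC1, and lies on chromosome 11 (119602905 to 119899591). Its level was 86.5, 81.7 and 76.6 CPM in Tn, 78.5, 70.2 and 65.9 in Teff1, 65.8, 75.9 and 57.8 in Teff2, and 58.8, 72.3 and 67.9 in Tex. Teff1 overlapped with Tn, while all day 5 libraries lay below it. No difference from Tn passed (log2 -0.19, -0.30 and -0.30 in Teff1, Teff2 and Tex, edgeR adjusted p = 0.303, 0.117 and 0.106), with 95% intervals reaching down to -0.51, -0.62 and -0.62. With upper-quartile scaling the day 5 differences were -0.41 and -0.42 and passed (adjusted p = 0.0297 and 0.0247).

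Sgk1, on chromosome 10 (21882184 to 21999903), encodes a kinase related to AKT whose transcript is known to respond to glucocorticoids and whose activity depends on mTORC2. Its changes against Tn in Teff1 and Teff2 were the largest of the 10 genes. In Tn it had 112, 125 and 136 CPM, and in Teff1 2.09, 3.71 and 3.76 CPM. At day 5 it had 5.92, 11.4 and 7.26 CPM in Teff2 and 10.2, 12.6 and 14.2 CPM in Tex. All Tn libraries were above all activated libraries, and all day 5 libraries were above all day 2 libraries. Sgk1 fell 39.0-fold in Teff1 (log2 fold change -5.29, SE 0.31, edgeR adjusted p = 1.79e-06), 15.2-fold in Teff2 (-3.93, SE 0.29, adjusted p = 3.65e-06) and 10.1-fold in Tex (-3.33, SE 0.28, adjusted p = 6.25e-06) against Tn.

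**Figure D3:**
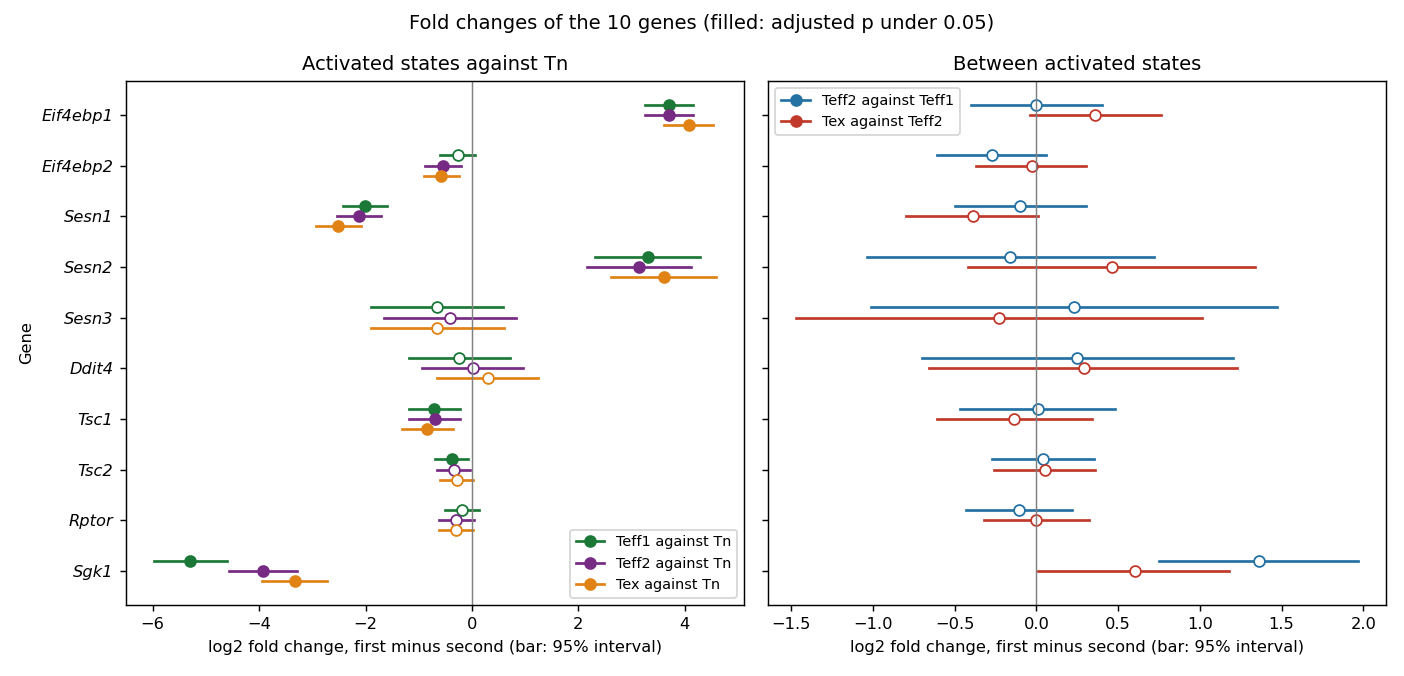
Log2 fold change of each gene with its 95% interval in edgeR's quasi-likelihood test, for activated states against Tn (left) and between activated states (right); filled points have an adjusted p under 0.05. Sgk1 in Teff1 at -5.29 and Eif4ebp1 in Tex at 4.07 mark the ends of the left panel, and no point in the right panel is filled.

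Between day 2 and day 5, Sgk1 was 2.57-fold higher in Teff2 than in Teff1 (log2 difference 1.36, SE 0.28), with no overlap of libraries, but its adjusted p of 0.0535 in edgeR did not pass. Over 22 alternatives its log2 difference ran from 0.80 to 1.54 and its adjusted p from 0.00116 to 0.242, and it passed in 6. None of the 10 genes passed between Teff2 and Teff1 in edgeR, where 0.67% of all genes did. 1 of the 10, Sgk1, had an unadjusted p under 0.05, DESeq2 called 1 (Sgk1) and limma-voom called 0. The libraries did not overlap for 2 of the 10, Sgk1 and Eif4ebp2, against 14.6% of all genes tested. Apart from Sgk1, the differences in log2 were between -0.27 for Eif4ebp2 and 0.25 for Ddit4. The intervals were wide for Sesn3 (-1.01 to 1.47), Ddit4 (-0.70 to 1.20) and Sesn2 (-1.04 to 0.72), so that a 2-fold change lay within each.

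Tex and Teff2 were compared at the same day of culture, to ask what sets TIM-3+ cells apart from TIM-3- cells. None of the 10 genes passed in edgeR, DESeq2 or limma-voom, where edgeR called 0.00698% of all genes tested, and 1 of the 10, Sgk1, had an unadjusted p under 0.05. Equal replicate numbers deviated together in these states (correlations over genes of 0.85, 0.78 and 0.75), and with the pairs as a block 1.69% of 13096 genes passed and still none of the 10. The nearest was Eif4ebp1, higher in Tex in 3 of 3 pairs by 0.35 on the log2 scale (SE 0.08, adjusted p = 0.0658 with the block, against 0.36, SE 0.18 and adjusted p = 1 without it). Its libraries were the only ones of the 10 genes not to overlap, against 4.81% of all genes tested. Sesn2 was higher in Tex in 3 of 3 pairs by 0.41 (SE 0.11, adjusted p = 0.103 with the block) and Sgk1 in 3 of 3 by 0.62 (SE 0.17, adjusted p = 0.124). Sesn1 was lower in Tex in 3 of 3 pairs by 0.38 (block value -0.38, SE 0.11, adjusted p = 0.143) and so were Sesn3, with a block value of -0.23 (SE 0.08, adjusted p = 0.199), and Tsc1, with -0.15 (SE 0.08, adjusted p = 0.377). Ddit4 had a block value of 0.28 (SE 0.12, adjusted p = 0.304). Eif4ebp2, Tsc2 and Rptor had block values of -0.03, 0.04 and -0.01, each with an SE of 0.08 or 0.09. How many of all genes kept a direction in 3 of 3 pairs was not counted. The directions in pairs are therefore descriptive and set none of the 10 genes apart.

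Related genes of the pathway were counted in 9 lists, first between Teff1 and Tn, where 24.5% of all genes tested were higher and 24.5% lower. The other genes of the mTOR complexes and the TSC complex moved little as a group: 3 of 12 rose and 2 fell, with a median log2 fold change of -0.09 against -0.06 over all genes tested. Tbc1d7, another subunit of the TSC complex, rose to 11.0 ± 1.94 CPM in Teff1 against 3.12 ± 0.925 CPM in Tn (SD, n = 3 each), a call that ended against Tn replicate 2 alone (log2 difference 1.46, edgeR adjusted p = 0.103). Prr5, an mTORC2 subunit, fell from 8.10 ± 6.66 to 0.701 ± 0.513 CPM over all libraries, but its log2 difference from Tn replicate 2 alone was 0.01 (adjusted p = 0.998). Of 26 genes that carry amino acid signals to mTORC1, 7 rose and 5 fell, or 12 and 6 without replicate 1 of the activated states. Without it 4209 of all 14798 genes tested rose and 4117 fell, against 3507 and 3505 of 14332 over all libraries. Fnip1, a partner of folliculin, rose from 45.3 ± 5.27 to 121.5 ± 23.5 CPM, and its relative Fnip2 from 1.87 ± 1.08 to 8.61 ± 3.57 CPM.

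Of 19 genes of cap binding and mTORC1 translation targets, 7 rose and 4 fell. Eif4e, which encodes the cap-binding protein that 4E-BPs hold, rose from a mean of 39.9 ± 6.23 CPM to 152.5 ± 46.9 CPM, and Eif4e3, a relative of it, from 10.5 ± 0.638 to 37.2 ± 6.24 CPM. Pdcd4, an inhibitor of the helicase eIF4A, fell from 319.9 ± 39.3 CPM in Tn to 102 ± 25.9 in Teff1, 90.2 ± 35.2 in Teff2 and 79.1 ± 13.0 in Tex. Of 20 upstream kinases and phosphatases tested, 1 rose and 13 fell, with a median of -0.64. Pik3ip1, an inhibitor of PI3 kinase, fell from 181.6 ± 21.99 to 24.3 ± 6.62 CPM, and Pik3r5, a regulatory subunit of PI3 kinase gamma, from 283 ± 13.1 to 72.4 ± 8.46 CPM. Sgk3, a relative of Sgk1, was the 1 gene of all 9 lists (144 genes) that passed between Teff2 and Teff1. As 0.67% of all genes tested passed there, a single call is near the background. Sgk3 had 16.2 ± 5.02 CPM in Teff1 and 6.49 ± 1.09 in Teff2 (log2 fold change -1.32, SE 0.25, edgeR adjusted p = 0.0379), while Sgk1 stood higher at day 5 without passing. The call of Sgk3 ended without replicate 1 of the activated states (-1.50, adjusted p = 0.0504). Its mean in Tn was 33.8 ± 2.52 CPM.

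The other 5 lists hold genes tied to known regulators of the 10 genes. Of 19 ATF4 and stress response genes 13 rose and 1 fell (median 2.97), and Chac1, an enzyme that degrades glutathione, rose to 22.7 ± 10.7 CPM in Teff1 where Tn had 0.0985 ± 0.0543. Of 13 FOXO factors and T cell targets, 10 fell and none rose (median -1.69), among them Klf2, a factor of T cell quiescence, from 749 ± 143 to 11.1 ± 1.73 CPM, and S1pr1, the receptor for exit from lymphoid organs, from 518 ± 56.1 to 9 ± 6.45 CPM. Of 7 glucocorticoid genes 2 rose and 4 fell. Tsc22d3, the gene of GILZ, fell from 501 ± 71.9 to 35.3 ± 15.7 CPM. The rises were those of Fkbp5, from 58.6 ± 2.10 to 114 ± 21.5 CPM, and Klf9, from 9.48 ± 8.38 to 26.4 ± 6.6 CPM. Of 12 hypoxia-inducible genes 7 rose and 1 fell (median 0.94), with Vegfa, a growth factor of vessels, at 2.35 ± 1.92 in Tn and 84.5 ± 37.2 CPM in Teff1. Of 12 p53 pathway genes 4 rose and 1 fell (median 0.64), with Cdkn1a, a cell cycle inhibitor, at 2.91 ± 3.32 in Tn and 64.8 ± 61.0 CPM in Teff1. Without replicate 1 of the activated states 6 p53 genes rose and 2 fell, with 3 of the 4 rises still called. Calls over all genes increased there too, to 4209 higher and 4117 lower of 14798 genes tested. The log2 change of Cdkn1a was 4.48 over all libraries (edgeR adjusted p = 0.00345), 3.49 without replicate 1 (0.00199) and 7.05 against Tn replicate 2 alone (0.0247). Against that library the log2 change in Teff1 was 6.66 in place of 5.17 for Vegfa and 2.87 in place of 2.20 for Fnip2, and that of S1pr1 was -6.54 in place of -5.84 without replicate 1. Fewer of all genes tested passed with this lone Tn library, so list calls against it are not counted. The median log2 changes of the lists in Teff1 against it were 2.91 for ATF4 genes, 0.85 for hypoxia genes and 0.65 for p53 genes. They were -1.83 for FOXO genes, -0.81 for glucocorticoid genes and -0.68 for upstream kinases and phosphatases. Those of the first 3 lists were 0.12, 0.24 and 0.29, in place of -0.09, 0.31 and 0.28 over all libraries.

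**Figure D4:**
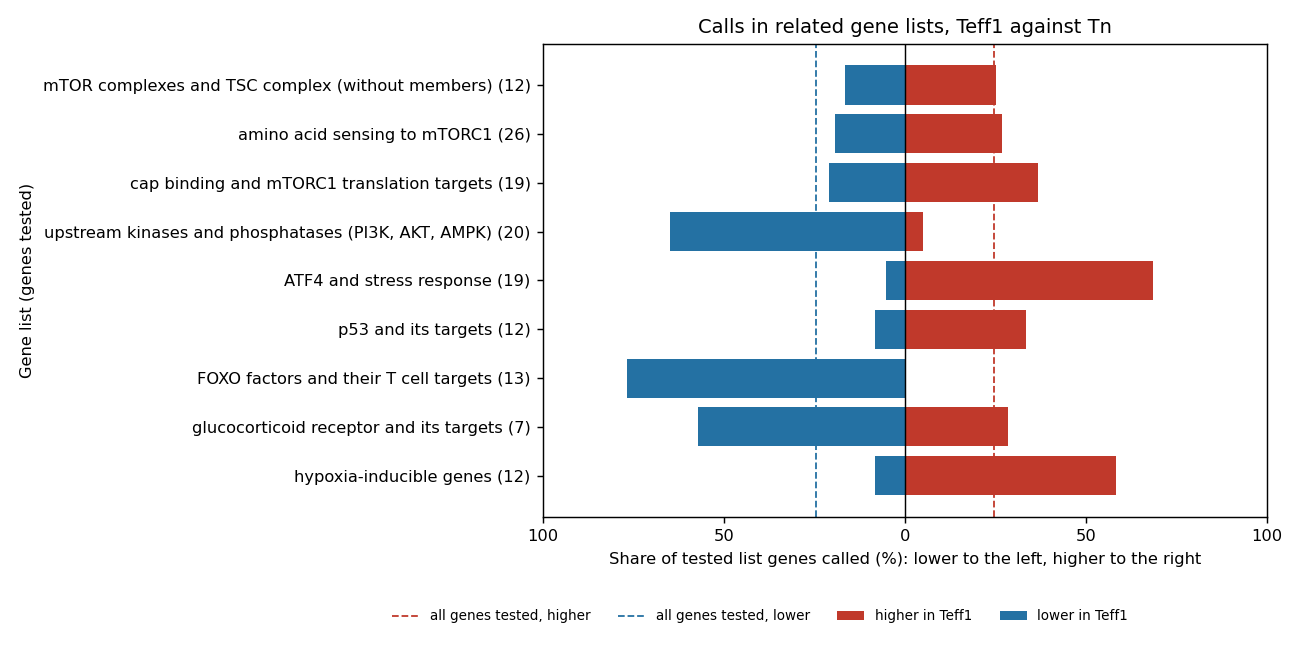
Share of the tested genes of 9 lists called higher (right, red) or lower (left, blue) in Teff1 than in Tn, in percent, with the number tested in parentheses; dashed lines give the share over all genes tested, 24.5% each way. The ATF4 list has 13 of 19 genes to the right and the FOXO list 10 of 13 to the left.

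The lists were also counted at day 5. Between Tex and Tn, 27.3% of all genes tested were higher and 25.6% lower. Of the ATF4 genes 13 of 19 rose and 1 fell, and Asns, asparagine synthetase, went up to 262.5 ± 78.8 CPM in Tex where Tn had 0.948 ± 0.693 (log2 change 8.10, or 9.86 against Tn replicate 2 alone). Of the FOXO list 8 of 13 fell and of the p53 list 7 of 12 rose and 1 fell (median 1.21, and 0.87 without replicate 1 of the activated states). List calls against Tn replicate 2 alone are not counted here either, as fewer of all genes tested passed there. Against that library the median log2 change in Tex was 3.48 for ATF4 genes and 1.19 for p53 genes. Over all libraries the ATF4 median was 3.22. The FOXO median was negative in both settings. Of the genes of amino acid sensing 10 of 26 rose and 5 fell, among the rises Sec13, a shared subunit of GATOR2 and of the COPII coat, from 53.2 ± 4.03 to 130 ± 30.7 CPM, a call that ended against Tn replicate 2 alone (log2 difference 1.29, edgeR adjusted p = 0.0616).

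Across the 12 libraries the profile of Eif4ebp1 on the log2 scale ran with that of Sesn2 (Pearson r = 0.96) and against those of Sesn1 (-0.97) and Sgk1 (-0.90), values that hold the step from Tn to the activated states. Over the 9 activated libraries alone the r of Eif4ebp1 was 0.68 with Sesn2, -0.44 with Sesn1 and, with the sign turned, 0.49 with Sgk1. Sesn1 ran with Tsc1 in both sets (0.88 over 12 libraries and 0.64 over 9), but with Sgk1 its r was 0.83 over 12 libraries and -0.72 over 9. Sesn3 ran most with Tsc1 (0.81 and 0.89). Ddit4 had no r above 0.24 over 12 libraries, which include the low Tn replicate 1, while over the 9 activated libraries its r was 0.83 with Eif4ebp1, 0.67 with Sgk1 and 0.57 with Tsc2. These r values describe libraries that share states and replicate numbers, and they carry no p. Over all 12 libraries, among 8563 genes with a mean of at least 10 CPM, those most like Eif4ebp1 were Pla2g12a, Slc43a3 and Asns (r = 0.993, 0.992 and 0.990), and those most like Sesn2 were Cth, Trib3 and Slc3a2 (0.981, 0.979 and 0.977). Sesn1 was closest to Als2cl, Rassf2 and Fam65b (0.988, 0.987 and 0.986) and Sgk1 to Myl12b, Stk10 and Cyth4 (0.967, 0.966 and 0.960). For Tsc1 the closest were Inpp4a, Pfkfb2 and Ankrd12 (0.980, 0.979 and 0.978), for Tsc2 Pstpip1, Ubxn11 and Klhl36 (0.962, 0.958 and 0.958), and for Eif4ebp2 Tcf20, Hpcal1 and Clint1 (0.959, 0.951 and 0.951).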

How the data were processed

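RNA-seq of 12 libraries was analysed from the deposited matrix of raw counts per gene symbol. The submitters' processing notes name HISAT2 and HTSeq beside DESeq2 and the build mm10 (BWA and Juicer are also listed), and their versions, settings and strandedness are not given in the sources used here. A second deposited matrix holds the authors' normalized values on a log2 scale, of unstated transformation, and served as an alternative. The 4 Hi-C samples were not analysed here. Counts were filtered by expression, scaled with TMM and tested in edgeR 4.0.16 (R 4.3.3) with its quasi-likelihood test on all 12 libraries with state as the term, with Benjamini-Hochberg adjustment over 14332 genes. SEs are the log2 fold change divided by the root of F. Alternatives used other scaling and filters (none, or a mean of at least 1 CPM), DESeq2 1.42.0, limma 3.58.1, fewer libraries and a replicate block. For Tex and Teff2, deviations from the state mean correlated at 0.85, 0.78 and 0.75 for equal replicate numbers, so these were treated as pairs. The script was tested on simulated data in which few genes changed, and in Teff1 only. That test does not cover changes as wide as those against Tn. The 10 genes, the 9 lists and the tests were chosen with earlier results of these data known. From each list the text names, per comparison, up to 2 called genes of largest change with at least 5 CPM in the higher state. The 2 glucocorticoid genes that rose in Teff1 are named besides. Likeness used log2 of CPM plus 0.5. Of 144 list genes all 144 were found, Lamtor4, Lamtor5, Castor1 and Castor2 under older symbols. Levels were not compared between genes, since exon lengths were not used here. RefSeq windows and coordinates are of GRCm38.p6, the assembly also called mm10. A count table of this depth limits precision by counting error as well as by the 3 libraries per state.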

Additional observations from a re-analysis of the deposited data

How the results depend on the processing

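Against Tn, the calls and directions of Eif4ebp1, Sesn1, Sesn2 and Sgk1 held under all 23 alternatives in each of the 3 comparisons, as did that of Eif4ebp2 in Tex. Of the values for single genes, 1028 kept direction and side of the threshold, 20 passed anew, 26 no longer passed and 56 turned sign, none of the last being a value that had passed. Against Tn replicate 2 alone, calls over all genes went from 7012 to 3015 in Teff1, from 7010 to 3334 in Teff2 and from 7584 to 3944 in Tex, where fewer samples were used. Upper-quartile scaling moved the median log2 change of all genes from -0.06 to -0.201 in Teff1, and to -0.109 in Teff2 and -0.117 in Tex. Between Teff2 and Teff1, Sgk1 was the 1 gene of the 10 called with upper-quartile scaling, no filter, a filter at a mean of 1 CPM, DESeq2 or without replicate 1 of the activated states (single omissions 0 to 1), and calls over all genes went from 96 to 499 with DESeq2, 39 with only these states and 277 with the replicate block (single omissions 23 to 140). Between Tex and Teff2 the 1 call became 5 with DESeq2, 221 with the block, and 0 with upper-quartile scaling, the stricter filter, limma-voom, only these states, the authors' matrix or without replicate 1 (single omissions 0 to 1). The cause of these shifts was not tested.

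Signs that turned were the following, in log2. Ddit4 in Teff1 against Tn was 0.05 with limma-voom, 0.02 in the authors' matrix and 0.06 with the replicate block (single omissions -0.68 to 0.16). Ddit4 in Teff2 against Tn was -0.09 with upper-quartile scaling, -0.02 with the stricter filter, -0.01 without replicate 1 of the activated states and -0.57 against Tn replicate 2 alone (-0.43 to 0.41), and in Tex -0.29 in the last setting (-0.14 to 0.69). Between Teff2 and Teff1, Eif4ebp1 was -0.01 with DESeq2 or its size factors, -0.05 with no filter and -0.04 without replicate 1 (-0.15 to 0.21). Tsc1 was there -0.01 with DESeq2, its size factors or limma-voom, -0.02 in the authors' matrix, -0.05 with no filter, -0.11 without replicate 1 and 0 with the block (-0.18 to 0.15). Tsc2 was -0.02 with no filter and -0.05 without replicate 1 (-0.05 to 0.13), Sesn2 0.01 without replicate 1 (-0.53 to 0.17), and single omissions gave -0.27 to 0.07 for Sesn1 and -0.41 to 0.97 for Sesn3. Between Tex and Teff2, Rptor was 0.01 with no filter, 0 with limma-voom and in the authors' matrix and 0.08 without replicate 1 (-0.09 to 0.13), and single omissions gave -0.14 to 0.05 for Eif4ebp2, -0.89 to 0.42 for Sesn3, -0.37 to 0.05 for Tsc1 and -0.02 to 0.14 for Tsc2.

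Equal replicate numbers were treated as pairs for Tex and Teff2 only. In the other comparisons same-numbered libraries correlated at 0 to 0.51, and the labels do not tell what they share. Teff2 replicate 1 correlated at 0.51 with Teff1 replicate 1 and at -0.28 and -0.41 with Teff1 replicates 2 and 3. Teff2 replicate 2 also reached 0.51 with Teff1 replicate 3, against 0.24 with Teff1 replicate 2. In these comparisons the block changed 2 calls, of Sesn3 (-0.81, edgeR adjusted p = 0.0354) and Tsc2 (-0.34, adjusted p = 0.114), both in Teff1 against Tn. Levels per transcript length were planned and not run, as no exon lengths were used here. Sgk1 rested on 44 to 78 counts per library in Teff1, where counting error is largest.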
